A study of Drosophila melanogaster with 6 samples.

Results

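The genes described here are 10 genes that build the cleavage furrows of the cellularizing *Drosophila melanogaster* embryo or drive the apical constriction that follows: *slam*, *bnk*, *Sry-alpha*, *T48*, *RhoGEF2*, *Rho1*, *zip*, *pnut*, *dia* and *nuf*. They were chosen by name, as the rows of the deposited table whose gene symbol, or any symbol joined to it by a comma, is one of these. All 10 were found among 16596 loci. RNA was measured by poly(A) RNA-seq in 6 samples of hand-sorted stage 5 embryos. The 3 control samples were *w1118* embryos. The 3 others were embryos laid by females homozygous for *zldZnF2*, a Cas9-made allele that replaces a zinc-chelating cysteine with serine in the second zinc finger of ZLD (Zelda), the maternally supplied activator of the zygotic genome. The comparison asks how the levels of these genes differ in embryos that inherit the altered maternal ZLD, and the genotype that defines the groups is that of the mother.

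During cellularization, membrane grows down between the nuclei of the syncytial blastoderm. The tip of each furrow, the furrow canal, carries F-actin, myosin II, septins and anillin, while vesicles passing through the recycling endosome supply membrane. A small set of zygotic genes, among them *slam*, *bnk*, *Sry-alpha* and *nullo*, is switched on in a short burst for this process, and acts on machinery that the mother loaded into the egg, including RhoGEF2, Rho1, myosin, septins and the formin Dia. At gastrulation RhoGEF2, Rho1 and myosin are used again. Fog signalling and the transmembrane protein T48 concentrate RhoGEF2 at the apical surface of the ventral mesoderm, and actomyosin then narrows the cell apices.

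The table gives 1 FPKM (fragments per kilobase of transcript, scaled to the number of fragments mapped) for each genotype, which the authors computed over the 3 samples together. No value per sample was at hand, so there is no replicate error, the depth is unknown, and no test or interval stands behind any difference below. The comparison was made as log2 of the *zldZnF2* value over the *w1118* value. The background was the 5950 loci on chromosome arms 2L, 2R, 3L and 3R whose mean FPKM over both genotypes was at least 1, and all 10 genes passed this minimum. All 2716 loci on X, 4 and Y, *zld* included, are listed at 0 in both genotypes, so these zeros are not read as absence. The labels could not be checked from *zld*, and an allele that replaces a single residue need not alter its level. Of 8 patterning genes that mark stage 5 (*eve*, *ftz*, *h*, *prd*, *Kr*, *kni*, *hb*, *tll*), the lowest value was 39.5 FPKM, for *prd* in *w1118*, and their summed level was 865 in *w1118* and 1057 in *zldZnF2*. Single markers differed in both directions: *prd* was 2.21-fold, *ftz* 1.94-fold and *h* 1.59-fold higher in *zldZnF2*, the log2 ratios of *hb* and *tll* were -0.36 and -0.38, and the median log2 ratio of the 8 was 0.35. Of 5 genes listed as markers of late embryonic tissues, the muscle genes *Mhc* and *Mlc2* were listed at 3.40 and 4.04 FPKM in *w1118* and at 0.031 and 0.313 in *zldZnF2*, the neuronal *nSyb* at 1.21 and 0.350, and the glial *repo* below 0.1 in both. The fifth, *how*, was listed at 78.8 and 95.8, a level like that of the patterning genes, so it does not serve here as a late marker. It made up most of the list's sum of 87.6 and 96.5, which hides the lower values of *Mhc* and *Mlc2* in *zldZnF2*. Of 8 eggshell genes, *Cp18* had 1.20 and 1.14 FPKM, 6 were at 0 in *w1118* and 4 in *zldZnF2*. The part of these differences in the results was not tested.

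Of the 10 genes, 2 were over 2-fold higher in *zldZnF2*, *RhoGEF2* (2.63-fold) and *T48* (2.52-fold), and none was over 2-fold lower. Over all loci kept, 13.5% were over 2-fold higher and 9.58% over 2-fold lower. At a limit of 1.5-fold, *zip* joined the higher genes (1.505-fold, just past the limit) and *bnk* was lower (1.60-fold), beside 22.7% of all loci higher and 18.8% lower. The other 6 genes lay within 1.5-fold. The median log2 ratio was 0.15 over the 10 genes and -0.01 over all loci. These shares do not set the 10 genes apart from the background, and what the values show is which gene differed, at what level.

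**Figure D1:**
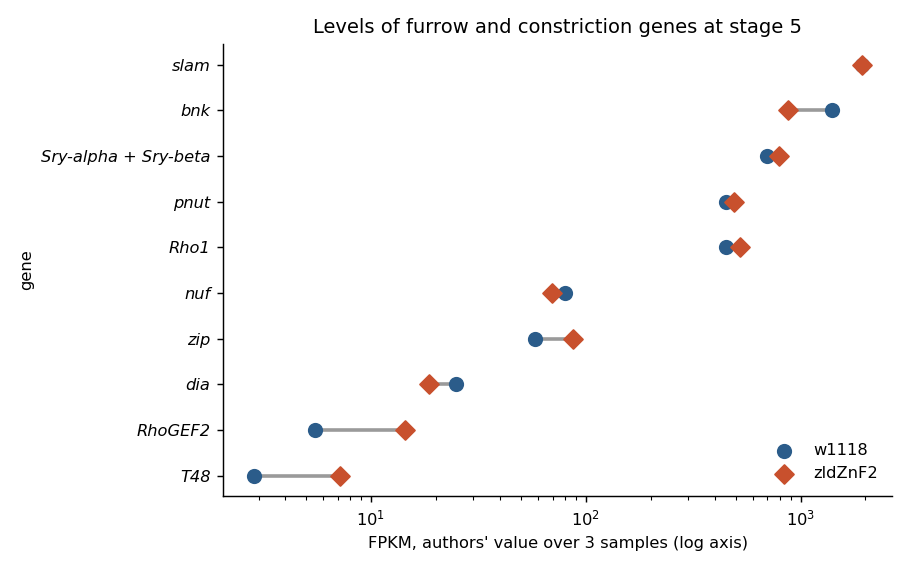
FPKM of each gene in *w1118* (blue circles) and *zldZnF2* (red diamonds), 1 value per genotype over 3 samples, on a log axis; a grey line joins both values of a gene. The genes ran from 2.85 FPKM (*T48*, *w1118*) to 1927 FPKM (*slam*, *zldZnF2*), the lowest 2 genes were the ones over 2-fold higher, and the markers of *slam* overlap.

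The levels, which are per length and can be set beside each other, ran from near the top of the table to its middle. Among 10453 loci on the 4 arms with a value above 0 in either genotype, *slam* stood at place 86 in *w1118* and *T48* at place 5022. The order within the set was almost the same in both genotypes. From the highest to the lowest, *w1118* had *slam*, *bnk*, *Sry-alpha*, *pnut*, *Rho1*, *nuf*, *zip*, *dia*, *RhoGEF2* and *T48*. In *zldZnF2*, *Rho1* stood before *pnut* and *zip* before *nuf*, and the other 6 genes kept their place. In *w1118*, *pnut* and *Rho1* were neighbours at 448.3 and 448.2 FPKM, so their exchange rests on values that no replicate error can order. The 10 values summed to 5082 FPKM in *w1118* and 4794 in *zldZnF2*, a sum that *slam* and *bnk* dominate.

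Among the zygotic furrow genes, *slam* was nearly the same in both genotypes, *bnk* was lower and the row of *Sry-alpha* was slightly higher. *slam* (FBgn0043854; dm6 2L, 6372388 to 6377284, plus strand) encodes a furrow canal protein that brings RhoGEF2 to the furrow. It was listed at 1919 FPKM in *w1118* and 1927 in *zldZnF2*, a log2 ratio of 0.01. *slam* was thus the most abundant and the least different of the 10 genes.

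*bnk* (FBgn0004389; 3R, 31193362 to 31194389, plus strand) encodes a small basic protein that keeps the actin network from closing too early, while the furrows are still moving inward. Its level was 1398 FPKM in *w1118* and 872 in *zldZnF2*, a log2 ratio of -0.68 and the lowest of the set. At this level large ratios were uncommon. Of 64 loci whose mean FPKM lay within 1.5-fold of that of *bnk*, 1 had a lower ratio, and the median log2 ratio of these loci was 0.01. Within a genotype, the level of *bnk* was 72.8% of that of *slam* in *w1118* and 45.3% in *zldZnF2*, a comparison that no scaling between the genotypes can alter. *bnk* is a single-exon gene of 1028 bases that lies inside *mesh*, a septate junction gene on the opposite strand, and the table gives both rows the span of *mesh*. The annotation shares no exonic base between them. *mesh* was listed at 4.06 FPKM in *w1118* and 1.67 in *zldZnF2*.

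*Sry-alpha* (FBgn0003510; 3R, 30039719 to 30043071, plus strand) encodes a protein that organises actin at the furrow canal. The table joins it with *Sry-beta*, a zinc finger gene annotated over the same span, and all 3300 exonic bases annotated to *Sry-alpha* are annotated to *Sry-beta* as well, so how much of the value belongs to either gene is unknown. The joint row was listed at 697 FPKM in *w1118* and 789 in *zldZnF2*, a log2 ratio of 0.18. Of 134 loci within 1.5-fold of its level, 20.1% had a higher ratio. The flanking *Sry-delta*, which lies 269 bases downstream on the same strand, was listed at 91.0 and 70.8 FPKM. On the other side, the joint row of *janA* and *janB* was listed at 407 and 371 FPKM, so both flanking rows were slightly lower where the *Sry-alpha* row was slightly higher.

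*T48* (FBgn0004359; 3R, 26881734 to 26910997, plus strand) encodes the transmembrane protein that anchors RhoGEF2 at the apical membrane of ventral cells, where it is transcribed under Twist. It was the lowest gene of the set, with 2.85 FPKM in *w1118* and 7.18 in *zldZnF2*, a log2 ratio of 1.34. Ratios of this size were frequent at this level. Of 723 loci within 1.5-fold of its mean FPKM, 31.5% were over 2-fold higher, the median log2 ratio was 0.51, and 19.9% had a ratio above that of *T48*. The gene spans 29.3 kb but has 2449 exonic bases, of which 223 at its 3′ end overlap *Ets97D* on the opposite strand. The library kit does not mark strand, so reads over those bases cannot be told apart. *Ets97D* was listed at 1.503 and 1.612 FPKM. In a whole-embryo sample, more cells that transcribe *T48* and more RNA in each of them cannot be told apart either. The genes that specify those cells were listed with smaller ratios: *sna*, the mesodermal repressor, at 123 and 149 FPKM (log2 ratio 0.28), and *twi*, whose row also holds *CR42742*, at 205 and 223 (log2 ratio 0.12).

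*RhoGEF2* (FBgn0023172; 2R, 17027190 to 17044653, plus strand) encodes the exchange factor that loads Rho1 with GTP at the furrow canal and, later, at the apical surface. It was listed at 5.51 FPKM in *w1118* and 14.5 in *zldZnF2*, a log2 ratio of 1.39 and the highest of the set. Of 946 loci within 1.5-fold of its level, 21.0% were over 2-fold higher and 8.03% had a ratio above that of *RhoGEF2*. Antisense RNAs are annotated inside the gene: *CR45144* shares 989 and *CR45145* 1104 of its 8486 exonic bases. *CR45144* was listed at 0.039 FPKM in *w1118* and 0.015 in *zldZnF2*. *CR45145* was listed at 0.000156 and 0.638 FPKM, values that share reads with *RhoGEF2* to an extent that libraries without strand cannot settle. *CG43327* and *CG43371*, which lie in introns on the opposite strand, stayed below 0.3 FPKM in both genotypes.

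*Rho1* (FBgn0014020; 2R, 16102687 to 16107229, plus strand) encodes the GTPase that RhoGEF2 activates. Its level was 448.2 FPKM in *w1118* and 519 in *zldZnF2*, a log2 ratio of 0.21. Of 209 loci within 1.5-fold of its level, 15.3% had a higher ratio. The RNA levels of *RhoGEF2* and *Rho1* therefore stood in a different proportion in each genotype, which mainly restates the ratio of *RhoGEF2*. *RhoGEF2* was listed at 1.23% of the level of *Rho1* in *w1118* and 2.79% in *zldZnF2*. *T48* stood at 51.7% and 49.6% of the level of *RhoGEF2*, nearly the same proportion in both genotypes. Both of these genes were low in level, where higher ratios were frequent. Protein was not measured.

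**Figure D2:**
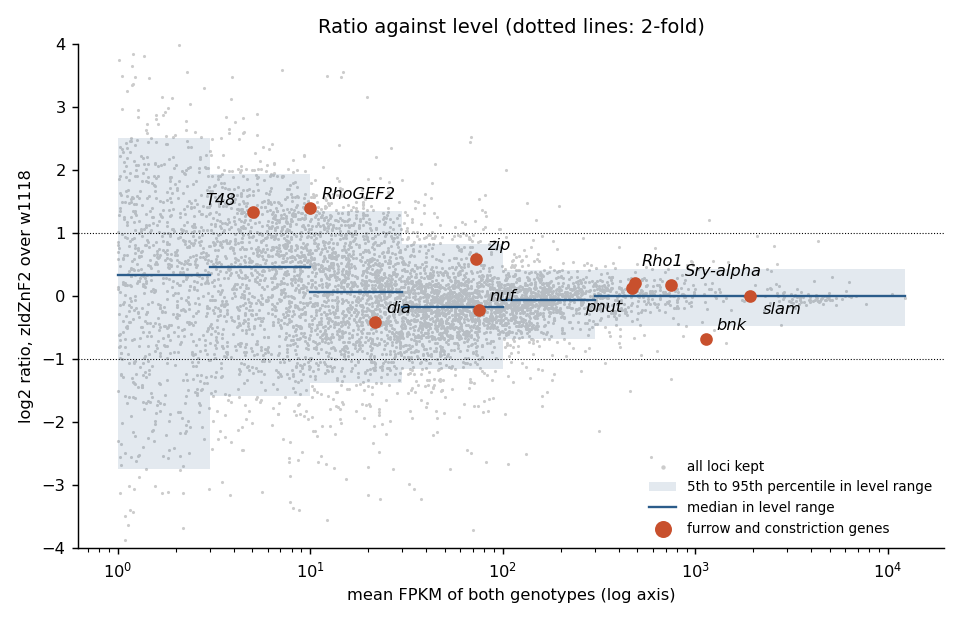
Log2 ratio (*zldZnF2* over *w1118*, vertical) against the mean FPKM of both genotypes (horizontal, log axis) for 5950 loci (grey; 78 loci with a ratio beyond 4 in either direction are off the axis) and the 10 genes (red); bands run from the 5th to the 95th percentile of each level range, lines are its median, and dotted lines mark 2-fold. *RhoGEF2* and *T48* lie at low levels where the band is wide. *bnk* (-0.68) lies below the band of loci at 300 FPKM or more, which runs from -0.48 to 0.43, and the other 9 genes lie inside their bands. *RhoGEF2*, at a mean of 9.99 FPKM, sits at the edge of its level range, and the next band ends at 1.36.

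The contractile apparatus held one gene with a ratio near the upper end of its level range and 2 with small ratios. *zip* (FBgn0287873; 2R, 24990570 to 25011965, minus strand) encodes the heavy chain of non-muscle myosin II. It was listed at 57.9 FPKM in *w1118* and 87.1 in *zldZnF2*, a log2 ratio of 0.59. Loci at this level were lower rather than higher in *zldZnF2*, with a median log2 ratio of -0.16 over 942 loci within 1.5-fold of its level, and 5.73% of them had a ratio above that of *zip*. The light chain gene *sqh* and the myosin-activating kinase gene *Rok*, which act with *zip* in the same contraction, are on X and listed at 0.

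*pnut* (FBgn0013726; 2R, 8237271 to 8240297, plus strand) encodes a septin, a filament-forming GTPase of the furrow canal. It was listed at 448.3 FPKM in *w1118* and 489 in *zldZnF2*, a log2 ratio of 0.12. The septin genes *Sep2* and *Sep5* were listed with log2 ratios of -0.06 and 0.39, and *Sep1* and *Sep4* lie on X. *dia* (FBgn0011202; 2L, 20758144 to 20768053, plus strand) encodes a formin, which nucleates unbranched actin filaments and is itself opened by Rho1. Its level was 24.8 FPKM in *w1118* and 18.6 in *zldZnF2*, a log2 ratio of -0.42. Of 982 loci within 1.5-fold of its level, 28.9% had a lower ratio, so a difference of this size was common there. *zip* and *dia*, the myosin and formin genes of the set, had ratios of opposite sign, each from 1 value per genotype. The level of *dia* was 5.54% of that of *Rho1* in *w1118* and 3.58% in *zldZnF2*, while that of *zip* was 12.9% and 16.8%.

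*nuf* (FBgn0013718; 3L, 14190870 to 14233250, plus strand) encodes the Rab11 adaptor of the recycling endosome, through which membrane and actin regulators reach the furrow. It was listed at 80.4 FPKM in *w1118* and 69.3 in *zldZnF2*, a log2 ratio of -0.21. The median log2 ratio of 929 loci within 1.5-fold of its level was -0.15, so *nuf* sat close to the middle of them. *Rab11*, the GTPase that Nuf binds, was listed at 420 and 338 FPKM, a log2 ratio of -0.31. *CG32141* and *CG7768* lie in introns of *nuf* on the same strand and were listed at 1.23 and 0.594, and at 0.040 and 0.157 FPKM, without a shared exonic base.

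The genes over 1.5-fold higher spanned 17.5 kb (*RhoGEF2*), 29.3 kb (*T48*) and 21.4 kb (*zip*). The longest of the set, *nuf* at 42.4 kb, was slightly lower. The annotation gives no intron to *bnk* or *pnut*, and their log2 ratios were -0.68 and 0.12. Over 5596 single-gene loci of the background that matched the annotation, those spanning 20 kb or more had a median log2 ratio of -0.11, with 16.4% over 2-fold higher and 14.4% over 2-fold lower. Those under 2 kb had a median of 0.01, with 12.9% higher and 9.98% lower. Ratios past 2-fold were thus more frequent at 20 kb or more than under 2 kb, in both directions. The shares did not rise steadily with span. They were 13.3% higher and 8.33% lower at 2 to 5 kb, and 15.3% and 8.15% at 5 to 10 kb. At 10 to 20 kb, the range of *RhoGEF2*, they were 13.6% and 11.5%. The ranges of span were not split by level, with which the shares varied more. Of loci at 1 to 3 FPKM, 52.5% were past 2-fold in either direction, and of those at 300 FPKM or more, 1.51%. The part of span in the ratios was not tested.

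**Figure D3:**
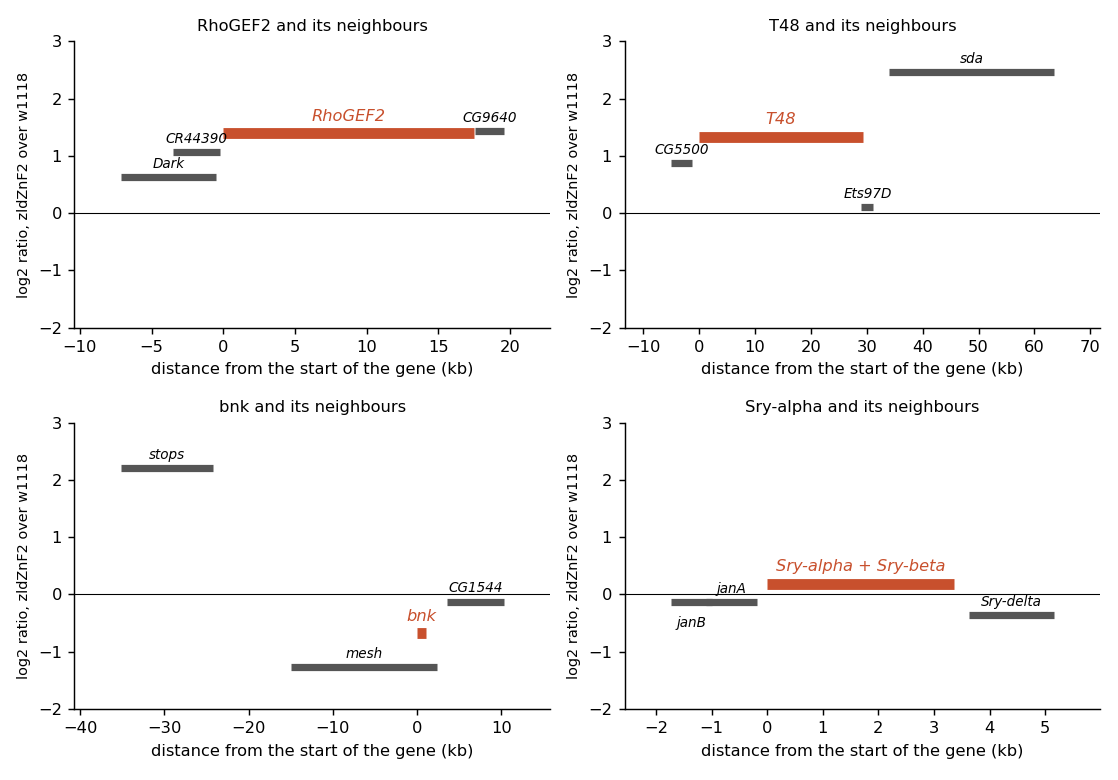
Log2 ratio (*zldZnF2* over *w1118*, vertical) of *RhoGEF2*, *T48*, *bnk* and the joint row of *Sry-alpha* and *Sry-beta* (red) and of the rows that overlap or flank them (grey), each drawn over its span in kb from the start of the named gene in its own direction; rows with a mean FPKM under 1 are left out. The rows drawn around *RhoGEF2* all had ratios above 0.6, while the rows drawn around *bnk* ran from -1.28 to 2.21.

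The rows beside *RhoGEF2* were higher in *zldZnF2* as well. *CG9640*, which starts 89 bases downstream on the same strand, was listed at 1.97 FPKM in *w1118* and 5.32 in *zldZnF2*, a log2 ratio of 1.43. Upstream, *Dark*, the apoptosome adaptor, had 11.5 and 17.8 FPKM (log2 ratio 0.63), and the antisense RNA *CR44390* that overlaps it 1.24 and 2.59 (log2 ratio 1.06). Higher ratios were frequent at low levels. Of all loci at 1 to 3 FPKM, the range of *CR44390*, 30.8% were over 2-fold higher. At 3 to 10 FPKM, the range of *CG9640*, 28.6% were. The rows inside *RhoGEF2*, all under 1 FPKM, were higher except *CR45144* (log2 ratio -1.42). The part of level in this shared direction, and of the shared direction in the value of *RhoGEF2*, was not tested. Beside *T48*, the upstream *CG5500* was listed at 8.203 and 14.98 FPKM (log2 ratio 0.87). The downstream *sda*, 4763 bases away, was listed at 0.360 and 1.98 (log2 ratio 2.46), also in the range of 1 to 3 FPKM by its mean. Around *bnk* the directions were mixed: *mesh* was lower, *CG1544* had a log2 ratio of -0.13 and *stops* 2.21.

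The 10 genes were then set beside 64 other genes of the same processes, in 6 lists. Of these 64, 19 lie on X and are listed at 0, 2 had a mean FPKM under 1, and 43 were kept. Of the 43, 1 was over 2-fold higher and 1 over 2-fold lower, beside 13.5% and 9.58% of all loci, and their median log2 ratio was 0.11. The same shares of all loci stand behind the counts of each list below. They depend strongly on level. Of loci at 1 to 3 FPKM, 30.8% were over 2-fold higher and 21.7% lower. At 30 to 100 FPKM the shares were 2.90% and 6.91%. The lists were not matched to loci of their own level. Though within 2-fold, *kuk*, *pbl* and *cpb* lay above the 5th to 95th percentile band of their level range, and *cno* lay below it. The remaining measured genes of the early zygotic list were all higher. *halo*, which sets the direction of lipid droplet transport, was listed at 2144 and 2812 FPKM (log2 ratio 0.39). *kuk*, needed for the elongation of nuclei, was listed at 2183 and 3098 (log2 ratio 0.50), and *dunk*, an early regulator of furrow myosin, at 1160 and 1256 (log2 ratio 0.11). The ratio of *kuk* lay above the 95th percentile of loci at 300 FPKM or more (0.43), as that of *bnk* lay below their 5th (-0.48). In this list of 6 measured genes *bnk* was thus the only one listed lower in *zldZnF2*, and *nullo* is on X. The contrast is limited. *slam* was nearly the same in both genotypes (log2 ratio 0.01), and the *Sry-alpha* value is shared with *Sry-beta*. *halo* and *kuk* are in the list for roles other than the furrow itself.

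**Figure D4:**
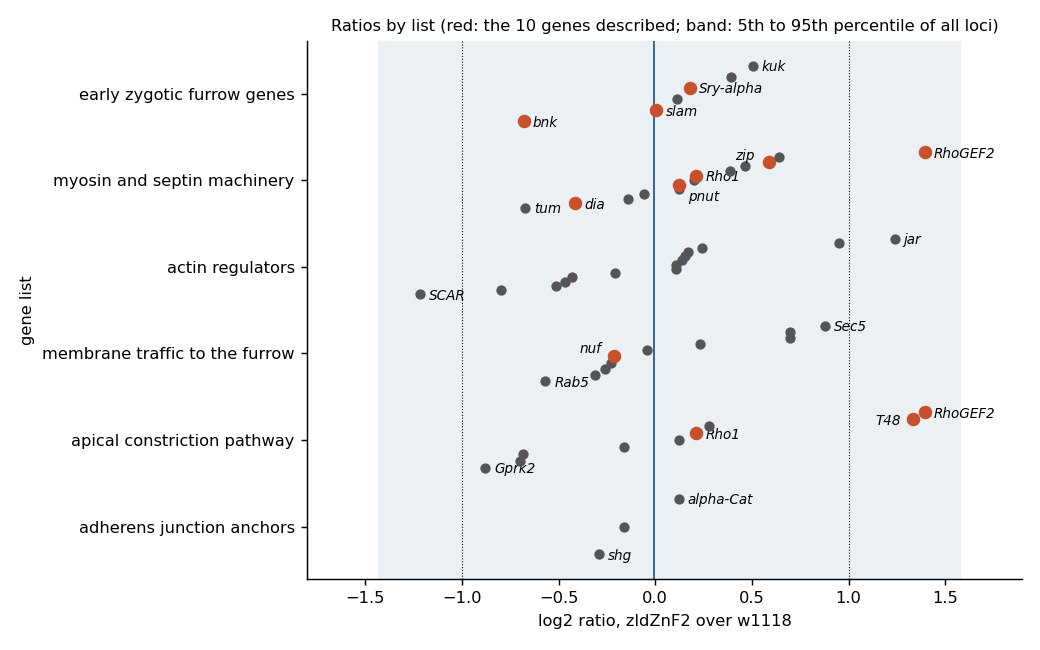
Log2 ratio (*zldZnF2* over *w1118*, horizontal) of every gene kept in the 6 lists; the 10 genes are in red, others in dark grey, with the name of the lowest and highest of each list. The line is the median of all 5950 loci, the band their 5th to 95th percentile (-1.43 to 1.58) and dotted lines mark 2-fold: *RhoGEF2* and *T48* stand at the right, and *jar* (1.24) and *SCAR* (-1.22) are the only other genes past 2-fold.

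Among 8 other kept genes of the myosin and septin list, none was past 2-fold and the median log2 ratio was 0.16. The highest were *pbl*, the exchange factor of cytokinesis, at 94.8 and 148 FPKM (log2 ratio 0.64), the kinesin *pav* at 0.46 and *Sep5* at 0.39. The lowest were *tum*, whose product partners Pav at the cleavage furrow, at 124 and 77.8 FPKM (log2 ratio -0.67), the anillin gene *scra* at -0.14 and *Sep2* at -0.06. *pbl* and *tum* thus had log2 ratios of similar size and opposite sign.

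Among 14 kept actin regulators, the median log2 ratio was 0.11. *jar*, myosin VI, was over 2-fold higher, at 10.3 and 24.2 FPKM (log2 ratio 1.24), and *SCAR*, an activator of the Arp2/3 complex, was over 2-fold lower, at 7.03 and 3.02 (log2 ratio -1.22). Of all loci with a mean of 10 to 30 FPKM, the range of *jar*, 13.3% were over 2-fold higher. At 3 to 10 FPKM, the range of *SCAR*, 11.5% were over 2-fold lower. The capping protein subunits differed from each other, with 0.95 for *cpb* and 0.24 for *cpa*. The filamin gene *cher* had a log2 ratio of -0.80 and the kinase gene *Abl* one of -0.51.

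Of 9 other kept membrane traffic genes, the exocyst genes *Sec5* (2.87 and 5.27 FPKM, log2 ratio 0.88) and *Sec6* (log2 ratio 0.70) and the membrane-bending *Amph* (log2 ratio 0.70) were the highest. The small GTPase genes *Rab5* (116 and 78.1 FPKM, log2 ratio -0.57), *Rab11* (-0.31) and *Rab8* (-0.26) were the lowest, on the same side of 0 as *nuf*. *Sec5* and *Sec6* were low in level, where higher ratios were frequent. A further exocyst gene, *Sec8*, whose row also holds *CG2082*, was listed at 19.8 and 23.2 FPKM, a log2 ratio of 0.23.

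In the apical constriction list, *T48* and *RhoGEF2* had higher ratios than *Rho1* (0.21) and than the 6 other kept genes. None of these 6 was past 2-fold, and their median log2 ratio was -0.42. Each of the 6 was listed at 25.4 FPKM or more in both genotypes. *T48* and *RhoGEF2* were listed lower, at levels where higher ratios were frequent, and the part of level in this contrast was not tested. The lowest were the G protein-coupled receptor kinase gene *Gprk2* at 46.8 and 25.4 FPKM (log2 ratio -0.88), the junction-to-myosin linker gene *cno* at 178 and 110 (-0.70) and the junction adaptor gene *Traf4* at 58.2 and 36.2 (-0.68). *cta*, the G protein alpha subunit of the Fog pathway, had 53.3 and 47.6 FPKM (log2 ratio -0.16). The ligand gene *fog* and its receptor gene *mthl1* lie on X. The receptor gene *smog*, listed as *pog*, was below 0.1 FPKM in both genotypes. Of the adherens junction genes on the autosomes, *shg* (E-cadherin) had a log2 ratio of -0.29, *p120ctn* -0.16 and *alpha-Cat* 0.12, all within 1.5-fold.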

How the data were processed

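Poly(A) RNA-seq libraries (TruSeq RNA v2, a kit that does not mark strand) were made from 3 *w1118* and 3 *zldZnF2* samples, grouped by title. The authors cleaned the reads in Galaxy, aligned them with RNA-STAR against dm6, ran Cufflinks at its defaults and set the genotypes against each other with Cuffdiff (the labels also name TopHat). Counting, strand and normalization options are not given in the sources used here. For every locus the deposited table gives 1 FPKM per genotype, made by the authors over the 3 samples, so depth per sample is unknown and no test, interval or left-out replicate could be had. The table also holds the authors' own fold changes, test statistics, p-values, q-values and calls, none of which was used.

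From the FPKM, log2 ratios (*zldZnF2* over *w1118*, no pseudocount) were computed for loci on 2L, 2R, 3L and 3R with a mean of at least 1, and the calculation was tested on simulated data. Coordinates are 1-based, from the Ensembl release 115 annotation, whose build is dm6; for 8 of the 10 genes start and end equal those of the table. The 10 genes and the lists were chosen with earlier results of these data known. Named genes are the 10, those sharing their loci, the 3 highest and 3 lowest of each list, and any list gene past 2-fold; flanking rows and other list genes named were chosen after their values were seen. Alternatives were other filters, pseudocounts, scalings, single-gene loci and fold limits. Promoter sequences were not analysed here. Python 3.11.15, NumPy 2.4.6, pandas 2.3.3 and Matplotlib 3.10.9 were used.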

Additional observations from a re-analysis of the deposited data

How the results depend on the processing

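The fold limit decided the counts of genes. At a limit of 3-fold, 0 of the 10 genes were higher, and at 1.5-fold 1 of them, *bnk*, was lower, where the limit of 2-fold gave 2 and 0. The filters, pseudocounts and scalings tried left both counts at 2-fold as they were. Of all 5950 loci, 806 were higher and 570 lower at 2-fold. Without a filter on low values these counts were 2684 and 2119 of 10453 loci. With a mean FPKM of at least 5 they were 410 and 340 of 4689. Of the 5950 loci, 1353 and 1117 were past 1.5-fold, and 302 and 265 past 3-fold. A pseudocount of 1 lowered the counts at 2-fold to 579 and 450, while those of the 10 genes stayed. A pseudocount of 1 lowered the log2 ratio of *T48* from 1.34 to 1.09 and that of *RhoGEF2* from 1.39 to 1.25. None of the 10 ratios changed sign under these alternatives, and 87 of 89 recomputed ratios moved by less than 0.1. Most of these could not move further, so that count is no measure of robustness. A filter leaves the values of a gene as they are, and a scaling shifts every log2 ratio by the same amount. Only the pseudocounts could move the ratios of single genes by different amounts. *slam* ran from 0.01 to 0.03. With single-gene loci only, the row of *Sry-alpha* and *Sry-beta* drops out. With 1 value per genotype, the spread between samples, the depth behind *T48* and *RhoGEF2* and the effect of leaving out a sample could not be had. No paired analysis was possible because the table holds no value per sample.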

Other observations

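Rows that flank the other genes of the set had ratios in both directions. *cad*, the posterior homeobox gene that starts 2677 bases downstream of *dia*, was listed at 77.6 FPKM in *w1118* and 21.4 in *zldZnF2*, a log2 ratio of -1.86. On the other side of *dia*, the nearest row, *CG9323*, 158 bases away, was listed at 3.57 and 4.66 FPKM (log2 ratio 0.39), and *Ns4*, 3488 bases away, was listed at 56.7 and 30.8 FPKM (log2 ratio -0.88). Upstream of *pnut*, the neural repressor gene *dpn* was listed at 61.2 and 38.3 FPKM (log2 ratio -0.68) and the antisense RNA *CR44275*, which overlaps it, at 43.7 and 21.7 (log2 ratio -1.01). Beside *Rho1*, *CG8414* was listed at 10.1 and 15.4 FPKM (log2 ratio 0.61) and *mRpL34* at 91.7 and 98.6 (log2 ratio 0.10). These rows were singled out after their values were seen and carry no test.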
